A study of Mus musculus with 6 samples.

Results

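The genes described here are the heat shock proteins and the J-domain cochaperones of the mouse, 72 of the 31265 rows of the deposited gene table. They were chosen by symbol alone: every row named as an HSP90, HSP70, HSP110, HSP60, HSP10 or small heat shock protein, or as a Dnaja, Dnajb or Dnajc gene, with 7 rows named as pseudogenes left out. The set holds 3 HSP90 genes, 13 HSP70 genes, 1 HSP110 gene, 3 genes of the HSP60/HSP10 chaperonin, 8 small heat shock protein genes, and 4 Dnaja, 12 Dnajb and 28 Dnajc genes. All values are FPKM, in which a gene's fragments are divided by transcript length and by the size of the library.

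Both groups were E14Tg2a embryonic stem cells, an established mouse line labelled WT, that carried the redox sensor Grx1-roGFP2 in the nucleus and had been differentiated for 5 days as embryoid bodies. The sensor is a fluorescent protein whose excitation changes with the glutathione redox state around it. The oxidized group was the 10% of live cells with the most oxidized sensor and the reduced group the 10% with the most reduced sensor, and each of the populations A, B and C gave 1 of both. The 3 oxidized and 3 reduced samples were sequenced as poly(A) libraries, and the question was whether the nuclear redox state goes with the fate a cell takes.

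Chaperones bind unfolded or partly folded proteins and release them after cycles of ATP hydrolysis. HSP70 proteins take up clients handed over by J-domain proteins, which stimulate the HSP70 ATPase, and pass some of them on to HSP90 or to chaperonins, while small heat shock proteins hold unfolded proteins without using ATP. Under heat or oxidative protein damage the transcription factor HSF1 induces many of these genes, each compartment (cytosol, endoplasmic reticulum, mitochondria) has its own HSP70 and J-domain partners, and pluripotent cells hold high basal levels of several of them.

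The libraries were not alike within the oxidized group. The first principal component, with 42.9% of the variance, placed oxidized A and B at -30.8 and -34.8, oxidized C at -0.45 and the reduced libraries between 15.2 and 28.5. The mitochondrial transcript mt-Co3 was at 2710 and 1525 FPKM for oxidized A and B, 128 FPKM in oxidized C and 112 to 199 FPKM in the reduced libraries. A row named CT010467 split the other way, with 1410, 1736 and 43825 FPKM across oxidized A, B and C. Its reduced values were 34116, 36593 and 35888 FPKM. A further row of that name had 387, 621 and 8293 FPKM across oxidized A, B and C, against 7855, 4935 and 9848 FPKM across reduced A, B and C. For both rows the lowest library was oxidized A, followed by oxidized B. Summed pluripotency markers (Pou5f1, Sox2, Nanog, Zfp42) were at 257, 303 and 180 FPKM across oxidized A, B and C, against 420, 374 and 294 FPKM in the reduced libraries. Among them Nanog went the other way in oxidized A and B, at 44.3 and 49.0 FPKM, against 11.5 FPKM in oxidized C and 18.2 to 27.2 FPKM in the reduced libraries. The 4 endoderm markers (Sox17, Foxa2, Gata4, Gata6) summed to 18.8, 22.2 and 22.1 FPKM in oxidized cells, against 9.96, 7.36 and 13.0 FPKM in reduced cells, and the leukocyte marker Ptprc was listed at 0 in all 6 libraries. The 5 markers of primitive streak and mesoderm summed to 207, 173 and 139 FPKM in oxidized cells, against 116, 96.8 and 129 FPKM in reduced cells, most of it Hand1, at 188, 154 and 127 FPKM in oxidized cells and 81.8, 62.9 and 97.6 FPKM in reduced cells. The other 4 (T, Mixl1, Eomes and Mesp1) had negative log2 differences, and T, a primitive streak marker, fell in oxidized cells (log2 difference -1.53, limma adjusted p = 0.0158). The 3 neuroectoderm markers summed to at least 3.33 FPKM in each oxidized library, against at most 2.54 FPKM in each reduced library. Of these only Nes averaged 1 FPKM or more, and Pax6 and Sox1 averaged less. Markers of blood and endothelium summed to 338 FPKM in oxidized C and 320 FPKM in reduced C, and to no more than 41.9 FPKM in the other 4 libraries, and most of the sum in population C was the globin Hba-x, at 314 FPKM in oxidized C and 290.1 FPKM in reduced C. In such bulk samples fewer cells of a type and less RNA per cell cannot be told apart, and the part of these differences in the results below was not tested.

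The mitochondrial chaperonin genes show how closely linked 2 chaperone genes can be in the genome. Hspd1 encodes HSP60, the barrel of the mitochondrial chaperonin (chr1:55077835-55088243 in mm10, minus strand), and Hspe1 encodes HSP10, its lid (chr1:55088132-55091307, plus strand). They start head to head, and their annotated exons overlap by 112 bases on opposite strands. The 300 bases around the Hspe1 start site, from 250 before it to 50 after, come from RefSeq (GRCm38.p6, which has the mm10 coordinates) and lie at chr1:55087898-55088197, plus strand. The window is shown because it also covers most of the window of an Hspd1 start site at base 55087932, which is read from the other strand. Capitals mark a heat shock element, the site bound by HSF1, searched on both strands as GAANNTTCNNGAA; here matches on the 2 strands overlap.
Hspe1: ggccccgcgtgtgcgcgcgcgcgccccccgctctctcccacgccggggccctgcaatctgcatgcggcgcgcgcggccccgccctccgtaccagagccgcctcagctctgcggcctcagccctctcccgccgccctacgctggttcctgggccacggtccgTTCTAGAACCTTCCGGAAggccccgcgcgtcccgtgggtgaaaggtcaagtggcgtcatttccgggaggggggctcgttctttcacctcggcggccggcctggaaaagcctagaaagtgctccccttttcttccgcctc

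Among RefSeq windows of this length the heat shock element was found in 198 of 32851 (0.603%). Of the 72 chaperone genes, 57 had a window, and the element was found for Hspd1, Hspe1, Dnajb6 and Hsph1. For Hspd1 it lay in the window of the start site at base 55087932. The window of the Hspd1 start site at base 55088243, the gene's annotated end, did not hold it. Genes without a window, Hsp90aa1, Hsp90ab1 and Hspa8 among them, were not searched for either motif. A second motif, the endoplasmic reticulum stress element bound by ATF6 and NF-Y (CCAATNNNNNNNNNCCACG, both strands), was found in 39 windows of all genes (0.119%) and in those of Hspa5, Hsp90b1 and Dnajc3. The sites below, with 5 bases on either side and the motif in capitals, are shown so that the expression of these genes can be read beside them. A match describes the letters only and is not evidence of binding in these cells.
Dnajb6, heat shock element, chr5:29735847-29735869, plus strand: tccgaGAATCTTCCGGAAcgcta
Hsph1, heat shock element, chr5:149636283-149636305, plus strand: gaggaGAACTTTCCAGAAtctgc
Hspa5, endoplasmic reticulum stress element, chr2:34772020-34772048, plus strand: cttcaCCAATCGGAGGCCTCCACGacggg
Hsp90b1, endoplasmic reticulum stress element, chr10:86705633-86705661, minus strand: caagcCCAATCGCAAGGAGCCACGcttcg
Hsp90b1, endoplasmic reticulum stress element, chr10:86705528-86705556, plus strand: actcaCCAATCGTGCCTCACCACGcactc
Dnajc3, endoplasmic reticulum stress element, chr14:118937822-118937850, plus strand: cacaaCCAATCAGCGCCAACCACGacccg

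Of the 72 genes, 57 averaged 1 FPKM or more and were tested, 14 averaged less and 1, Dnajc5b, was listed at 0 throughout. None of the 57 was called in either direction by limma, a linear model that shares information on spread across genes, at a Benjamini-Hochberg adjusted p under 0.05, where 0.796% of all 12191 tested genes were called (0.517% higher with oxidized sensor, 0.279% lower). Those were 63 genes higher and 34 lower in oxidized cells; median-ratio scaling of the libraries gave 57 and 50, and quantile normalization 54 and 51, with no chaperone gene among them. With the population as a block 2 genes were called higher and 2 lower, and leaving out 1 library gave 1 to 884 higher and 2 to 301 lower, so that this background share depends on the libraries and the fit. Without adjustment 7 of the 57 had p under 0.05 (12.3%), against 19.4% of all tested genes. Of these, 4 were higher in oxidized cells (Hspa12b, Dnajc15, Hspb6 and Hspd1; 7.02% of the set against 13.5% of all genes) and 3 lower (Dnajc21, Dnajc22 and Hspa14; 5.26% against 5.93%). The smallest adjusted p in the set was 0.108, for Dnajc21. The median log2 difference, the oxidized mean of log2(FPKM + 1) minus the reduced one, was 0.01 over the 57 genes and 0.08 over all tested genes, and 30 of the 57 were above 0 (52.6% against 59.3%). After median-ratio scaling the medians were -0.09 and -0.01, and 16 of the 57 were above 0 (28.1% against 48.9%).

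Groups that did not overlap were seen for 13 of the 57 genes. All oxidized libraries were above all reduced ones for Hspa12b, Dnajb4, Dnajb5 and Dnajc15 (7.02% of the set, where 16.2% of all genes did so). All oxidized libraries were below all reduced ones for Hsp90ab1, Hspa8, Hspa9, Hspa4, Hspa14, Dnaja2, Dnajc8, Dnajc21 and Dnajc22 (15.8%, where 8.81% of all genes did so). In all 3 populations 15 of the 57 genes were lower in oxidized than in reduced cells (26.3%, where 16.4% of all genes were) and 7 were higher (12.3%, where 26.9% were). None of these 22 genes passed the adjusted test.

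**Figure D1:**
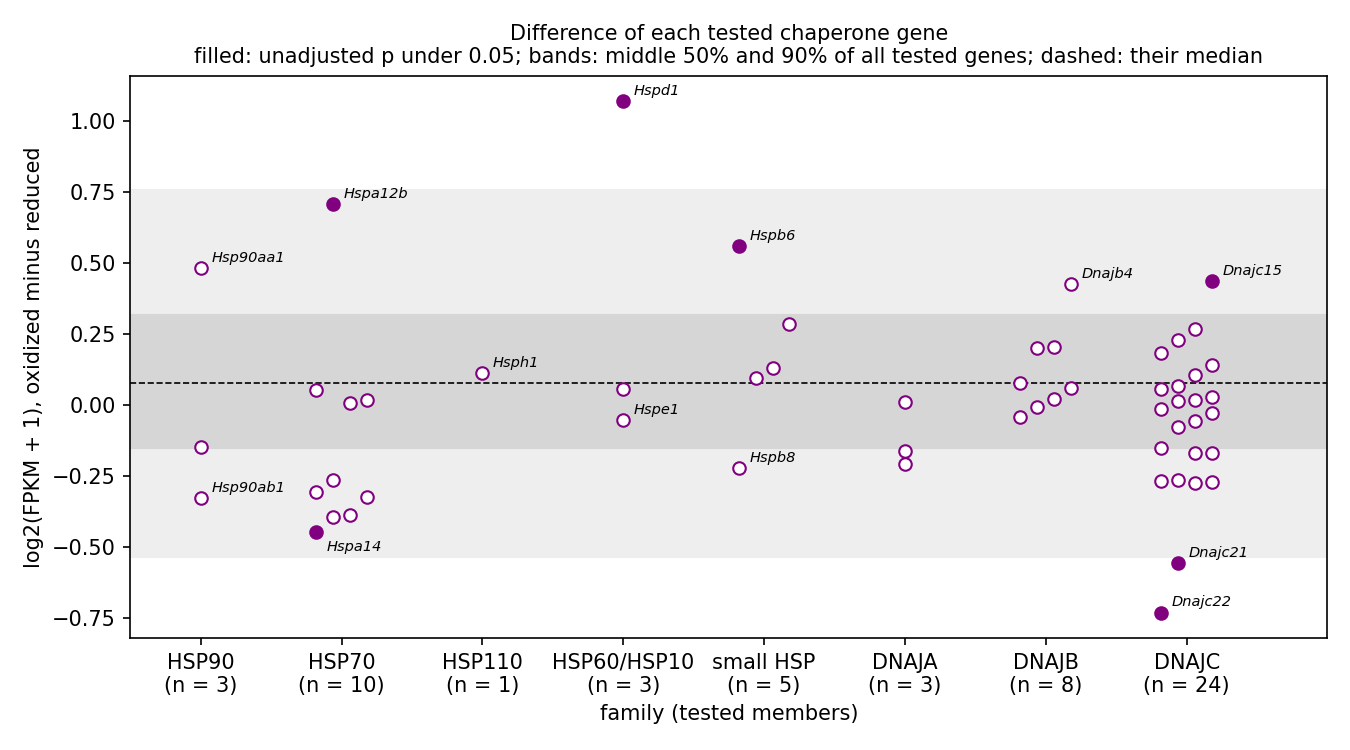
Log2 difference (oxidized minus reduced, log2(FPKM + 1)) of each of the 57 tested chaperone genes, by family. Filled points have an unadjusted p under 0.05, the dark and light bands hold the middle 50% and 90% of all 12191 tested genes, and the dashed line is their median of 0.08. Most points lie inside the light band; Hspd1 lies above it, and Dnajc21 and Dnajc22 below it.

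The mitochondrial chaperonin held the largest difference of the set, with the largest standard error. Hspd1 was at 310, 267 and 77.0 FPKM across oxidized A, B and C, against 77.7, 97.5 and 90.1 FPKM across reduced A, B and C. Oxidized A and B thus stood far above the other 4 libraries, while oxidized C was the lowest of the 6. The means were 218 ± 124 FPKM for the oxidized and 88.4 ± 10.0 FPKM for the reduced group (SD, n = 3 each), with a log2 difference of 1.07 (SE 0.46, adjusted p = 0.247, limma). Within populations A, B and C the log2 difference was 1.98, 1.45 and -0.22. Without oxidized C it was 1.70 (adjusted p = 0.00139), and without oxidized A and B it was -0.19 (adjusted p = 0.769).

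Hspe1, transcribed from the other side of the same start region, did not follow Hspd1. It was at 178, 133 and 116 FPKM across oxidized A, B and C, against 116, 171 and 153 FPKM across reduced A, B and C. The groups overlap, with the highest value in oxidized A and the lowest in oxidized C. The log2 difference was -0.05 (SE 0.22, adjusted p = 0.911). The ratio of Hspd1 to Hspe1 within a library was 1.75, 2.01 and 0.666 in oxidized A, B and C, against 0.667, 0.569 and 0.588 in reduced A, B and C. Oxidized C had nearly the same ratio as reduced A, and oxidized A and B had the highest ratios of the 6.

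Part of these values can come from copies elsewhere in the genome. Of the 50-base stretches of Hspd1 transcripts in GENCODE vM21, 42.1% also occur in transcripts of other genes, 38.0% in the pseudogene Hspd1-ps3, which was at 11.5, 7.78 and 2.79 FPKM across oxidized A, B and C and 2.50, 3.93 and 3.69 FPKM across reduced A, B and C. For Hspe1 the shared part was 22.8%. No source used here says how such reads were assigned, and the values of Hspd1 and Hspe1 are uncertain.

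**Figure D2:**
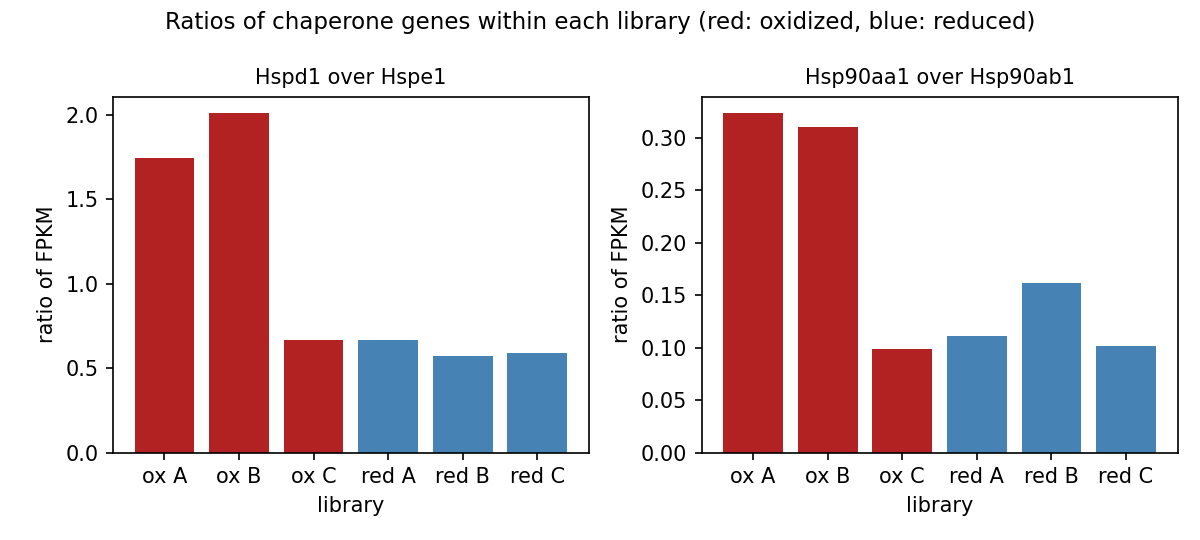
Ratio of FPKM of Hspd1 to Hspe1 (left) and of Hsp90aa1 to Hsp90ab1 (right) in each library, oxidized in red and reduced in blue, 1 bar per library. Oxidized A and B have the highest bars in both panels, at 1.75 and 2.01 and at 0.323 and 0.310, and oxidized C lies among or next to the reduced libraries.

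The HSP90 genes had the highest summed level of any family in all 6 libraries. Hsp90ab1, the constitutive cytosolic HSP90 (chr17:45567775-45573271), was at 1257, 1247 and 1445 FPKM across oxidized A, B and C, against 1785, 1568 and 1603 FPKM across reduced A, B and C. Every oxidized library was below every reduced one. The means were 1316 ± 111 FPKM for the oxidized and 1652 ± 116 FPKM for the reduced group, a log2 difference of -0.33 (SE 0.18) that did not pass the adjusted test (adjusted p = 0.345).

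Hsp90aa1, the stress-inducible cytosolic HSP90 (chr12:110690605-110702728), had another pattern. It was at 407, 387 and 143 FPKM across oxidized A, B and C, against 199, 253 and 164 FPKM across reduced A, B and C. As for Hspd1, oxidized A and B were the highest and oxidized C the lowest of the 6. The means of 312 ± 147 FPKM for the oxidized and 205 ± 45.1 FPKM for the reduced group differed by 0.48 on the log2 scale (SE 0.38, adjusted p = 0.506). The difference was 0.97 without oxidized C, the oxidized library nearest to the reduced ones (limma adjusted p = 0.0219). It was -0.49 without oxidized A and B, with oxidized C as the only oxidized library. Its ratio to Hsp90ab1 was 0.323, 0.310 and 0.0992 in oxidized A, B and C, against 0.111, 0.162 and 0.102 in reduced A, B and C.

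Of the Hsp90aa1 stretches 47.5% occur in other genes, 41.8% in the gene model Gm12346. That row was at 34.6, 41.4 and 14.8 FPKM across oxidized A, B and C and 18.5, 19.8 and 14.4 FPKM across reduced A, B and C, so it too was highest in oxidized A and B. Hsp90ab1 shares 3.44%. Hsp90b1, the HSP90 of the endoplasmic reticulum known as GRP94, was at 157, 149 and 134 FPKM across oxidized A, B and C, against 156, 198 and 138 FPKM across reduced A, B and C. Its groups overlap, and the log2 difference was -0.15 (SE 0.18, adjusted p = 0.676).

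**Figure D3:**
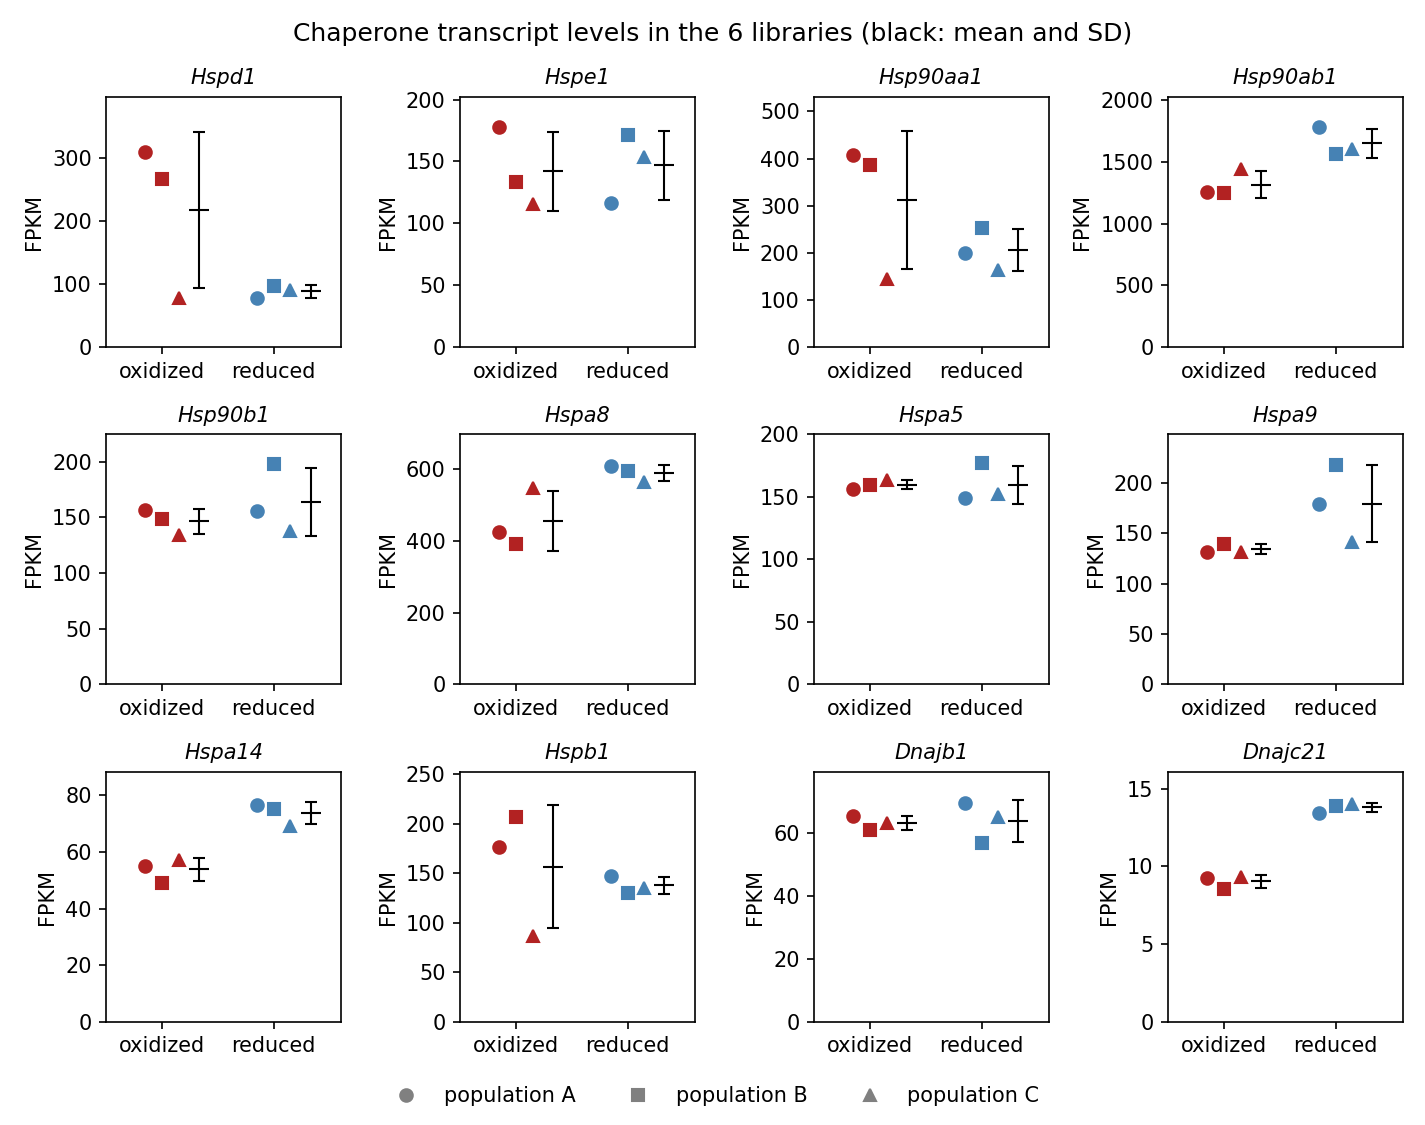
FPKM of 12 chaperone genes in the 6 libraries, oxidized in red and reduced in blue; the marker gives the population, and the black bar the mean and SD of 3 libraries. Hspd1, Hsp90aa1 and Hspb1 are split between oxidized A and B and oxidized C, whereas Hsp90ab1, Hspa8, Hspa9, Hspa14 and Dnajc21 have all oxidized libraries below all reduced ones.

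The HSP70 family leaned towards lower values in oxidized cells, with a median log2 difference of -0.29 over its 10 tested genes and none called. Of these 10, 4 were above 0 and 6 below, where 59.3% of all tested genes were above 0. After median-ratio scaling of the libraries 9 of the 10 were below 0, with a median of -0.38. Of all tested genes 48.9% were above 0 after this scaling. Hspa8, the constitutive cytosolic HSC70 (chr9:40800984-40810087), was at 425, 392 and 549 FPKM across oxidized A, B and C, against 608, 596 and 565 FPKM across reduced A, B and C. The groups do not overlap, although oxidized C lies only just under the lowest reduced library. The means of 455 ± 82.8 FPKM for the oxidized and 590 ± 22.2 FPKM for the reduced group gave a log2 difference of -0.39 (SE 0.18, adjusted p = 0.290). Its transcripts share 39.4% of their stretches, 34.6% with the gene model Gm15459, a row at 639, 603 and 841 FPKM in oxidized cells and 961, 1020 and 872 FPKM in reduced cells.

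Hspa9, the mitochondrial HSP70 known as mortalin, was at 131, 140 and 131 FPKM across oxidized A, B and C, against 179, 218 and 142 FPKM across reduced A, B and C. The oxidized values lie close together and below each reduced value, with reduced C nearest to them. The log2 difference was -0.40 (SE 0.19, adjusted p = 0.286). Hspa9 imports and folds proteins in the compartment where HSP60 works, and in oxidized A and B the genes of these partners lay on opposite sides of their reduced libraries.

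Hspa14, an HSP70 that sits on the ribosome with the J-domain protein Dnajc2 (chr2:3488850-3512814), was at 55.0, 49.2 and 57.2 FPKM across oxidized A, B and C, against 76.6, 75.0 and 69.3 FPKM across reduced A, B and C. The groups are clearly apart, and each population had the same sign. The means were 53.8 ± 4.13 FPKM for the oxidized and 73.6 ± 3.85 FPKM for the reduced group, with a log2 difference of -0.45 (SE 0.15, adjusted p = 0.158). Dnajc2 itself had a log2 difference of -0.27 (adjusted p = 0.453), with groups that overlap. Hspa4, a relative that exchanges nucleotides on HSP70 and was picked for mention after its values were seen, had a log2 difference of -0.31 (adjusted p = 0.340).

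The HSP70 of the endoplasmic reticulum had close means in both groups, 160 ± 3.74 FPKM for the oxidized and 159 ± 15.5 FPKM for the reduced group. Hspa5, known as BiP (chr2:34771970-34777547), was at 156, 160 and 164 FPKM across oxidized A, B and C, against 149, 177 and 152 FPKM across reduced A, B and C. Its groups overlap, and the log2 difference was 0.01 (SE 0.15, adjusted p = 0.982), or -0.10 after median-ratio scaling. None of its stretches is shared with another gene. Hspa5, Hsp90b1 and Dnajc3, the genes with an endoplasmic reticulum stress element in their windows, had log2 differences of 0.01, -0.15 and -0.03.

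The heat-inducible HSP70 genes were low. Hspa1b was at 4.61, 11.7 and 6.14 FPKM across oxidized A, B and C, against 8.86, 7.76 and 9.18 FPKM across reduced A, B and C (log2 difference -0.26, adjusted p = 0.625). Hspa1a was at 2.33, 2.18 and 2.98 FPKM in oxidized cells, against 2.87, 2.34 and 5.41 FPKM in reduced cells (log2 difference -0.33, adjusted p = 0.496). Neither pair of groups is apart, and the near-identical transcripts share 62.3% and 66.3% of their stretches with other genes, mostly with each other. Hsph1, an HSP110 that exchanges nucleotides on HSP70, was at 12.6, 16.3 and 10.7 FPKM in oxidized cells, against 12.8, 11.7 and 11.5 FPKM in reduced cells (log2 difference 0.11, SE 0.18, adjusted p = 0.758). Of the other genes with a heat shock element in their windows, Hspd1 had a log2 difference of 1.07, Hspe1 of -0.05 (SE 0.22) and Dnajb6 of -0.04 (SE 0.23). For Hsph1, Hspe1 and Dnajb6 the sign changed when 1 library was left out, and for Hspd1 without oxidized A and B (-0.19), so no direction was established for these genes.

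Hspa12b, a distant HSP70 relative known from endothelial cells (chr2:131127280-131146321), was the HSP70 gene with the smallest p and went the other way. It was at 1.84, 3.02 and 1.81 FPKM across oxidized A, B and C, against 1.20, 0.686 and 0.995 FPKM across reduced A, B and C. All oxidized libraries were above all reduced ones at this low level. The log2 difference was 0.71 (SE 0.20, adjusted p = 0.131). Of the endothelial markers, Kdr was at 4.001, 3.36 and 5.65 FPKM in oxidized cells, against 3.22, 3.25 and 3.59 FPKM in reduced cells, and Pecam1 at 3.75, 3.78 and 3.28 FPKM, against 6.24, 5.98 and 4.57 FPKM. Cdh5 was at 0.467, 0.655 and 1.15 FPKM in oxidized cells and 0.770, 0.181 and 0.904 FPKM in reduced cells, and the part of endothelial cells in the Hspa12b values was not tested.

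**Figure D4:**
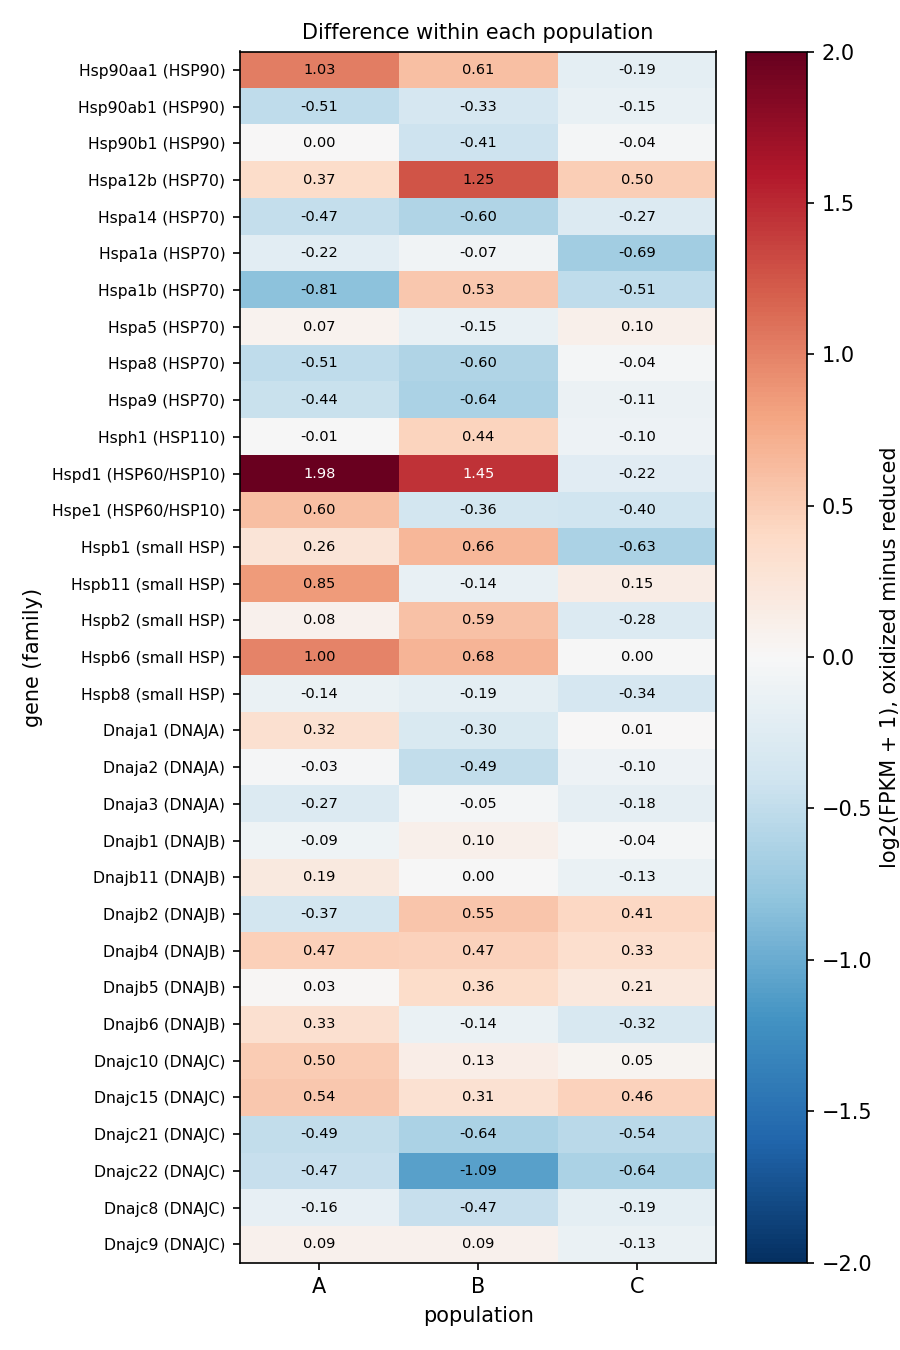
Log2 difference (oxidized minus reduced, log2(FPKM + 1)) of 33 chaperone genes within populations A, B and C, each cell from 1 oxidized and 1 reduced library, red for higher and blue for lower in oxidized cells. Hspd1 reads 1.98, 1.45 and -0.22 and Hsp90aa1 1.03, 0.61 and -0.19, while Dnajc21 reads -0.49, -0.64 and -0.54.

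Among the small heat shock proteins 5 of 8 were tested, with a median log2 difference of 0.13. Hspb1, the mouse HSP25 (chr5:135887919-135889563), was at 177, 207 and 87.0 FPKM across oxidized A, B and C, against 148, 130 and 136 FPKM across reduced A, B and C. Oxidized A and B were again the highest and oxidized C the lowest. The means of 157 ± 62.4 FPKM for the oxidized and 138 ± 8.95 FPKM for the reduced group differed by 0.10 on the log2 scale (SE 0.30, adjusted p = 0.882), and by -0.01 after median-ratio scaling. A pseudogene shares sequence with this gene too: 50.1% of its stretches occur elsewhere, 48.8% in Hsp25-ps1, a row at 8.01, 3.39 and 0.879 FPKM in oxidized cells and 0.726, 1.99 and 1.05 FPKM in reduced cells.

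Hspb6, or HSP20, was at 3.40, 3.35 and 1.87 FPKM across oxidized A, B and C, against 1.21, 1.71 and 1.88 FPKM across reduced A, B and C. Oxidized A and B were the highest, and oxidized C was level with reduced C. The log2 difference was 0.56 (SE 0.22, adjusted p = 0.210), and 0.76 without oxidized C (adjusted p = 0.0382). Of its exon bases 5.31% overlap Proser3 on the opposite strand, whose fragments may be included. Hspb8, the partner of the cochaperone Bag3, had a log2 difference of -0.22 (adjusted p = 0.557) and was lower in oxidized cells within each population. Hspb11, a subunit of intraflagellar transport, and Hspb2, which shares 24.4% of its stretches with Cryab, had log2 differences of 0.28 and 0.13 (adjusted p = 0.497 and 0.763).

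The J-domain proteins of classes A and B hand clients to HSP70, and none of the 11 tested genes was called. Dnajb1, the main heat-inducible HSP40 of the cytosol, was at 65.4, 60.9 and 63.0 FPKM across oxidized A, B and C, against 69.5, 56.7 and 65.0 FPKM across reduced A, B and C. The oxidized values lie inside the range of the reduced ones (log2 difference -0.01, SE 0.15, adjusted p = 0.980). Dnaja1 and Dnaja2, its cytosolic relatives of class A, had log2 differences of 0.01 and -0.21 (adjusted p = 0.983 and 0.506), and the mitochondrial Dnaja3 of -0.16 (adjusted p = 0.610).

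Dnaja2 was the gene of these whose groups do not overlap. It was at 116, 107 and 108 FPKM across oxidized A, B and C, against 118, 151 and 116 FPKM across reduced A, B and C, so oxidized A and reduced C all but meet. Dnajb6, which keeps polyglutamine proteins soluble, and Dnajb11, a cofactor of BiP in the endoplasmic reticulum, had log2 differences of -0.04 and 0.02 (adjusted p = 0.929 and 0.962). Among low genes Dnajb4 was at 1.48, 1.95 and 1.14 FPKM across oxidized A, B and C, against 0.792, 1.14 and 0.695 FPKM across reduced A, B and C, with a log2 difference of 0.42 (adjusted p = 0.266). Its groups touch, since oxidized C and reduced B agree to the third digit. Dnajb5 and Dnajb2, a neuronal J-protein that binds ubiquitin, both had a log2 difference of 0.20 (adjusted p = 0.521 and 0.663). Over the 8 tested Dnajb genes the median was 0.07, and -0.02 after median-ratio scaling.

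Class C holds specialised J-domain proteins, and the smallest adjusted p of the set lay here. Dnajc21, the counterpart of a yeast factor for the late maturation of the large ribosomal subunit (chr15:10446756-10470516), was at 9.26, 8.57 and 9.33 FPKM across oxidized A, B and C, against 13.5, 13.9 and 14.0 FPKM across reduced A, B and C. The groups are far apart for their spread, and oxidized C behaved like oxidized A and B. The means of 9.05 ± 0.415 FPKM for the oxidized and 13.8 ± 0.305 FPKM for the reduced group gave a log2 difference of -0.56 (SE 0.14, adjusted p = 0.108). Within populations A, B and C it was -0.49, -0.64 and -0.54, and no stretch of the gene is shared. In the authors' deposited table Dnajc21 had a q-value of 0.0117, one of 2 chaperone genes under 0.05.

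Dnajc22, the vertebrate relative of the fly gene wurst (chr15:99093170-99104737), was at 1.33, 0.783 and 1.44 FPKM across oxidized A, B and C, against 2.22, 2.79 and 2.79 FPKM across reduced A, B and C. The oxidized libraries were all below the reduced ones, at a low level. The log2 difference was -0.73 (SE 0.19, adjusted p = 0.109), with an adjusted p of 0.0351 without oxidized C. Dnajc15, a J-protein of the mitochondrial inner membrane (chr14:77820681-77875125), was at 7.32, 5.54 and 6.56 FPKM across oxidized A, B and C, against 4.74, 4.28 and 4.49 FPKM across reduced A, B and C. It was higher in every oxidized library than in any reduced one (log2 difference 0.43, SE 0.16, adjusted p = 0.194).

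The 3 most abundant Dnajc genes covered different roles. Dnajc9, a chaperone of histones H3 and H4, had a log2 difference of 0.02 (adjusted p = 0.956). Dnajc8, found with the splicing machinery, was at 60.3, 51.3 and 56.4 FPKM across oxidized A, B and C, against 67.6, 71.3 and 64.5 FPKM across reduced A, B and C. Its groups do not overlap (log2 difference -0.27, SE 0.15, adjusted p = 0.337). Dnajc10, a disulfide reductase of the endoplasmic reticulum known as ERdj5, had a log2 difference of 0.23 (adjusted p = 0.533). Over the 24 tested Dnajc genes 11 were above 0 and 13 below, with a median of -0.02.

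Oxidized A and B were above all other 4 libraries for 11 of the 57 tested genes (19.3%, where 22.0% of all genes did so), and by at least 1.5 times for Hspd1, Hsp90aa1 and Hspb6 (5.26% of the set, where 3.40% of all genes did so). They were below all other 4 for 9 of the 57 (15.8%, where 8.27% of all genes were). Left without oxidized C, the limma fit called Hspd1, Hsp90aa1 and Hspb6 higher and Dnajc22 lower, in a fit that called 7.25% of all genes higher and 2.47% lower. Of the 12 tested genes with at least 20% shared stretches, 3 had oxidized A and B above the other 4 libraries, as did 8 of the other 45. For Hspd1, Hsp90aa1 and Hspb6 oxidized C was not above all reduced libraries, and their differences cannot be told apart from what else set oxidized A and B apart. For Dnajc22 oxidized C, at 1.44 FPKM, was also below every reduced library, as it was for Dnajc21, Hspa14, Hspa8 and Hsp90ab1, 5 of the 9 in all. Among the 11, oxidized C was also above every reduced library for Hspa12b, Dnajb4 and Dnajb5.

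Summed over all 72 genes, chaperone transcripts made up 4056, 3896 and 3621 FPKM across oxidized A, B and C, against 4288, 4341 and 3992 FPKM across reduced A, B and C. Each oxidized library was below the reduced library of its population. The FPKM sum over all genes differed in the same direction. It was 348265, 325805 and 357687 FPKM across oxidized A, B and C, against 353068, 344885 and 370635 FPKM across reduced A, B and C. These totals include the CT010467 rows. The larger of these was at 1410, 1736 and 43825 FPKM across oxidized A, B and C, against 34116, 36593 and 35888 FPKM across reduced A, B and C. In A and B that row alone differed by more than the totals did, and in C it was higher in oxidized cells. The part of the totals in the chaperone sums was not tested. The HSP70 sum was at 849, 836 and 978 FPKM in oxidized cells and 1108, 1179 and 1022 FPKM in reduced cells, and the HSP90 sum at 1821, 1782 and 1723 FPKM in oxidized cells and 2140, 2019 and 1905 FPKM in reduced cells. Hspa8 and Hsp90ab1, the constitutive genes, are the most abundant in these sums.

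Genes that work with the chaperones were read from 8 lists, and none of their 89 tested genes was called. The regulator Hsf1 was at 4.93, 7.30 and 5.18 FPKM across oxidized A, B and C, against 4.99, 2.53 and 5.96 FPKM across reduced A, B and C (log2 difference 0.35, adjusted p = 0.493), with 3 of 5 regulators tested and a median of 0.20. The other regulator with the smallest p was Hsf2bp, which binds HSF2 (log2 difference -0.48, adjusted p = 0.245). The 11 exchange factors and BAG proteins of HSP70 had a median of 0.14, with Bag2 at 0.59 (adjusted p = 0.127) and the mitochondrial exchange factor Grpel2 at -0.54 (adjusted p = 0.142). The 21 HSP90 cochaperones had a median of -0.07, with Ptges3, the p23 cochaperone, at -0.47 (adjusted p = 0.262) and the myosin chaperone Unc45a at 0.43 (adjusted p = 0.266). For comparison, the median over all tested genes was 0.08.

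The cytosolic chaperonin TRiC/CCT, which folds actin and tubulin, had 6 of 8 subunits below 0 and a median of -0.12. Cct2 was at -0.31 and Cct4 at -0.32 (adjusted p = 0.309 and 0.319). Of all tested genes 59.3% were above 0, the share to read beside the signs in these lists. The 6 prefoldin subunits had a median of 0.06, with Pfdn2 at 0.47 and Pfdn6 at 0.33 (adjusted p = 0.210 and 0.442). Mitochondrial protein quality control, 9 genes, had a median of -0.01, with the protease Yme1l1 at -0.57 and the protease Htra2 at 0.34 (adjusted p = 0.158 and 0.237). The endoplasmic reticulum list, 17 of 18 genes tested, had 13 genes above 0 and a median of 0.22, with the stress-induced factor Ddit3 at -0.67 and the ubiquitin ligase Syvn1 at 0.76 (adjusted p = 0.111 and 0.144). Immediate early genes, which dissociation of tissue can induce, had a median of 0.18 over 14 of 15 genes, with Jun at 0.94 and Btg2 at 1.00 (adjusted p = 0.102 and 0.124).

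Genes with the same split as Hspd1 were found in several of these lists, and some are named here after their values were seen. Such a split is not particular to the lists. Of all tested genes, 3.40% had oxidized A and B at least 1.5 times the highest of the other 4 libraries. The share within the lists was not counted. The lectin chaperone Calr was at 305, 296 and 59.8 FPKM across oxidized A, B and C, against 61.6, 62.4 and 59.3 FPKM across reduced A, B and C. Bag3 was at 10.8, 8.89 and 3.61 FPKM in oxidized cells, against 2.86, 3.05 and 3.85 FPKM in reduced cells, and Trap1, the mitochondrial HSP90, at 87.3, 93.6 and 45.0 FPKM in oxidized cells, against 54.1, 50.5 and 54.0 FPKM in reduced cells. Manf, of the endoplasmic reticulum list, was at 30.7, 25.9 and 15.4 FPKM in oxidized cells, against 15.6, 16.3 and 17.1 FPKM in reduced cells. In each of these genes oxidized A and B were the highest, and oxidized C was within or below the range of the reduced libraries. With all 6 libraries the limma adjusted p-values of Calr, Bag3, Trap1 and Manf were 0.186, 0.173, 0.391 and 0.307.

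The authors' deposited table gave a q-value under 0.05 to 2 of the 72 chaperone genes (2.78%) and to 864 of all 31265 rows (2.76%). Besides Dnajc21, the other was Hspd1, with a q-value of 0.0394 and a fold of 2.47 in the authors' deposited table, the only chaperone gene it marks as significant. That is 1.39% of the set, where 605 of all 31265 rows (1.94%) are so marked. Dnajc21 is not marked, although its q-value is smaller. The authors' deposited q-values of Hspa12b and Dnajc22 were 0.0511 and 0.0560.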

How the data were processed

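The data are poly(A) RNA-seq of 3 oxidized and 3 reduced libraries. The authors deposited an FPKM value for each of 31265 genes and each library, per the file headers; the headers carry the group and the population letter. The submitters' processing notes list the mm10 build and the tools HISAT2, StringTie, edgeR, cutadapt and FastQC, without versions. The authors' deposited fold is the oxidized over the reduced mean FPKM (a ratio), with 1e-04 in place of 0, and the authors' deposited log2 column is its log2. The p-value and q-value columns are the authors', from a test the headers do not name. Low FPKM values times transcript length lay on whole steps for 38.9% to 43.7% of values (2% tolerance), so reads were not recovered; the steps would put 2.41e+07 to 3.65e+07 units in a library, and whether a unit is a fragment or a read is not known. Population C had the fewest units.

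The test used log2(FPKM + 1), with 1 as pseudocount, for the 12191 genes averaging 1 FPKM or more. The group was fitted in R 4.3.3 with limma 3.58.1 (eBayes with trend, not robust), two-sided, with Benjamini-Hochberg adjustment over all 12191 genes and a threshold of 0.05. On data simulated from the means and spread of these genes it recovered 53% of changes of 1 and 88% of changes of 2 on the log2 scale. The changed genes were all raised in oxidized cells and had a mean log2(FPKM + 1) above 2, so lower genes were not covered. Noise was drawn separately for each gene, without a shared split of oxidized A and B from C. The scale understates the change of low genes. The labels do not tell what separates the populations; p-values reflect only the scatter of these libraries, which may be technical.

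Per the series' design text both groups came from the same 3 populations, which makes the libraries of a letter a pair. Across genes, their deviations from group means had a correlation of -0.06 (A), 0.07 (B) and 0.20 (C). The highest correlation with a library of another letter in the other group was 0.13 (A), 0.13 (B) and -0.05 (C). Only in C was the pair of the same letter the more alike. A fit with the letter as a block was an alternative.

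The members and the lists were chosen with earlier results of these data known. Named were, in each family, the 3 most abundant genes and the 3 with the smallest p, plus well-known members; in each list, the 2 genes with the smallest p. Shared stretches and exon overlaps were read from GENCODE vM21, and start-site windows from RefSeq. No source used here tells if the strand was used in counting. For Ddit3 a second row was left out. 1 gene of the set is counted but not reported here.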

Additional observations from a re-analysis of the deposited data

How the results depend on the processing

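No alternative other than leaving out oxidized C called a chaperone gene, and the median-ratio, quantile, no-trend, no-filter, 5 FPKM, pseudocount 0.1 and replicate block fits called 0 in both directions. Over leave-one-out fits 0 to 3 chaperone genes were called higher and 0 to 1 lower, all of them without oxidized C. Among all genes, 1 was called higher and 0 lower with no filter, and 2 and 2 with the replicate block. At a mean of at least 5 FPKM 21 were called lower. Leaving out 1 library gave 1 to 884 genes higher and 2 to 301 lower: 884 and 301 without oxidized C, 44 and 20 without reduced C, and no more than 2 in either direction without any of the other 4. Of 454 alternative values for the 33 named genes, 409 kept their sign and their side of the threshold, 4 passed it without oxidized C and 41 changed sign. Near 0, median-ratio scaling gave -0.081 for Dnajb11, -0.0093 for Hspb1, -0.086 for Dnajc9, -0.097 for Hspa5 and -0.094 for Dnaja1. Quantile normalization gave -0.073 for Dnajb11, -0.052 for Dnajc9, -0.072 for Hspa5 and -0.081 for Dnaja1. Without oxidized A and B the values were -0.17 for Dnajb11, -0.66 for Hspb1, -0.49 for Hsp90aa1, -0.057 for Dnajc9, -0.19 for Hspd1, -0.069 for Dnajc10, -0.12 for Dnaja1, -0.15 for Hsph1 and -0.15 for Hspb2. Leaving out 1 library moved Dnajb11 between -0.083 and 0.13, Hspb1 between -0.15 and 0.47, Dnajb1 between -0.090 and 0.055, Dnajc9 between -0.028 and 0.055, Dnajb2 between -0.0042 and 0.38, Hspa5 between -0.039 and 0.086, Dnaja1 between -0.069 and 0.15, Dnajb6 between -0.16 and 0.17, Hsph1 between -0.040 and 0.24, Hspb2 between -0.058 and 0.27 and Hspe1 between -0.22 and 0.082.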

Other observations

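Of the 15 chaperone genes under the filter, the highest mean was 0.980 FPKM. Dnajb14, a membrane J-protein of the endoplasmic reticulum, was at 0.965, 0.596 and 0.561 FPKM across oxidized A, B and C, against 0.421, 0.339 and 0.459 FPKM across reduced A, B and C, all oxidized libraries above all reduced ones. Hspb9 was at 0.329, 0.255 and 0.350 FPKM in oxidized cells, against 0.154, 0.185 and 0.205 FPKM in reduced cells. Dnajc6, the neuronal auxilin that uncoats clathrin, was at 0.405, 0.452 and 0.240 FPKM in oxidized cells, against 0.492, 0.610 and 0.524 FPKM in reduced cells. These genes were picked after their values were seen and were not tested.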
